A study of Mus musculus with 4 samples.

Results

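Malat1 and Neat1, a pair of long non-coding RNAs (lncRNAs), were followed through RNA immunoprecipitates of mouse testis. They were found by gene symbol, which gave 2 gene models of the 50600 in each library: Malat1 (ENSMUSG00000092341.2) and Neat1 (ENSMUSG00000092274.2), both of RefSeq biotype lncRNA. In RNA immunoprecipitation a protein is pulled from a lysate on antibody-coated beads, and the RNAs that come with it are sequenced. There were 2 groups of 2 libraries, both from testes of C57BL/6 mice aged 8 weeks with no allele, transgene or treatment named: 1 precipitated with an antibody to LARP7 (the LARP7 RIP), the other with a non-specific IgG (the IgG RIP), which measures RNA that sticks without the antibody. The lysis buffer held 150 mM NaCl and the wash 500 mM, beads were incubated for 4 h, and inserts of 15 to 300 nt were kept, so that fragments of long RNAs, not whole molecules, were counted. The replicates are described as biological, with no word on whether each was a different animal, and the p-values therefore speak only of the scatter among these libraries.

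Malat1 is an abundant RNA that gathers in nuclear speckles, the compartments rich in splicing factors. Neat1 is the scaffold of paraspeckles, nuclear bodies built around its longer isoform with proteins such as NONO, SFPQ and PSPC1. The 3' end of Malat1 and of long Neat1 is cut by RNase P, not made by polyadenylation; the cut releases a small tRNA-like RNA (mascRNA from Malat1) and leaves an end folded into a triple helix. LARP7 is a La-related protein that binds the uridine-rich 3' ends of 7SK and of U6 RNA. The comparison asks whether these nuclear RNAs were found with LARP7 beyond the IgG background. Where the RNAs lay in the cell was not measured here.

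The genes are neighbours on chromosome 19 (GRCm38.p6, RefSeq). Malat1 lies at 5795690 to 5802672, and Neat1 at 5824708 to 5845480, 22036 nt away. The 58 nt mascRNA (Mascrna, 5795924 to 5795981) lies inside the annotated Malat1 gene, 234 nt from its lower-coordinate boundary, which is the 3' side of this minus-strand gene. Its length falls within the insert sizes kept. A count for Mascrna alone, and the position of reads along either gene, were not analysed here. The Malat1 model joins 5 transcripts and the Neat1 model 3, and no other model had the same 4 counts as either. RSEM, the program that estimated the counts, gives a posterior SD for each. It reached 2.08% of the Malat1 count and 4.35% of the Neat1 count in a library, so the sharing of multiply mapping reads touched both little.

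Libraries held 4411271 to 6994514 expected counts (estimated read numbers that need not be whole), and 17611 to 22289 models above 0. Their make-up differed by antibody. Protein-coding models took 15.0% and 20.4% of a LARP7 library and 42.3% and 38.3% of an IgG library, and 7SK took 4.58% and 14.3% against 0.552% and 1.40%. The 7SK RNA (Rn7sk), the known partner, had a log2 fold change of 4.53 (SE 1.07, edgeR adjusted p = 0.0167). With make-ups so different, the scale on which a long RNA is read changes its apparent difference. The mRNA of Larp7 itself had a log2 fold change of -1.46 (SE 0.41, edgeR adjusted p = 0.0291). With library totals every RNA is compared as a share of all counts. With TMM, a scaling that centres the bulk of the models and so allows for such a change in make-up, it is compared with the typical model. The median log2 fold change of the 12234 models tested was -0.05 with TMM and -1.47 with library totals.

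Malat1 was scarcer with the LARP7 antibody than with IgG on both scales. Its call depended on the scale, the filter on low counts, the tool and the libraries used. Neat1 was called on neither, and the sign of its difference turned with the scale. Malat1 had 250 and 110 expected counts in LARP7 replicates 1 and 2, and 1778 and 889 in IgG replicates 1 and 2. As a share of all counts these were 36.1 and 16.9 CPM (counts scaled by library size) with the LARP7 antibody, and 254 and 202 CPM with IgG. All LARP7 values lay below all IgG values, and the LARP7 pair was spread more widely than the IgG pair in relative terms. The share of all models whose groups separate in this way is not given here, so separation is description only, here and below. With 2 libraries against 2, an exact two-sided permutation p cannot go below 0.333. On the scale of library totals the median model also fell (-1.47). With TMM-scaled library sizes Malat1 had 65.0 and 25.2 CPM against 139 and 141 CPM. The groups again did not overlap. The means were 45.1 ± 28.1 and 140 ± 1.24 CPM (SD, n = 2 each), a log2 fold change of -1.63 (SE 0.57, 3.10-fold lower), which missed the threshold of 0.05 (edgeR quasi-likelihood test, two-sided, unadjusted p = 0.0159, adjusted p = 0.0597). DESeq2, whose size factors also allow for the make-up, gave -1.67 and called it lower (adjusted p = 0.0129). So did edgeR with TMM and no filter on low counts (-1.71, adjusted p = 0.0165), and with RSEM's posterior mean counts (-1.65, adjusted p = 0.048), while edgeR with the size factors of DESeq2 did not (-1.59, adjusted p = 0.0705). With TMM 24.2% of all models tested were called, 14.5% higher and 9.69% lower. With library totals Malat1 fell by 3.11 on the log2 scale (SE 0.62, edgeR adjusted p = 6.25e-06), on a scale where 47.1% of all models were called lower. The value without LARP7 replicate 2, the library with the fewest Malat1 counts, was -1.10 (adjusted p = 0.344), and without LARP7 replicate 1 it was -2.48 and passed (adjusted p = 0.0356).

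Neat1 had 131 and 161 expected counts with the LARP7 antibody and 320 and 139 with IgG. These made 18.9 and 24.8 CPM of all counts against 45.7 and 31.4 CPM, all LARP7 values below all IgG values. With TMM the order was the opposite: 34.0 and 37.0 CPM with the LARP7 antibody stood above 25.0 and 22.0 CPM with IgG. The TMM means were 35.5 ± 2.06 and 23.5 ± 2.13 CPM (SD, n = 2 each), with a log2 fold change of 0.59 (SE 0.39, edgeR adjusted p = 0.280). With library totals the value was -0.83 (SE 0.51, edgeR adjusted p = 0.160). Between these, Neat1 has no direction that holds on both scales. With TMM it lay close to the typical lncRNA: the 504 lncRNA models tested had a median of 0.71 (108 called higher, 21.4%, and 28 lower, 5.56%), and 241 of them had a lower log2 fold change than Neat1. Malat1 stood low among them, with 77 of the 504 below it.

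**Figure D1:**
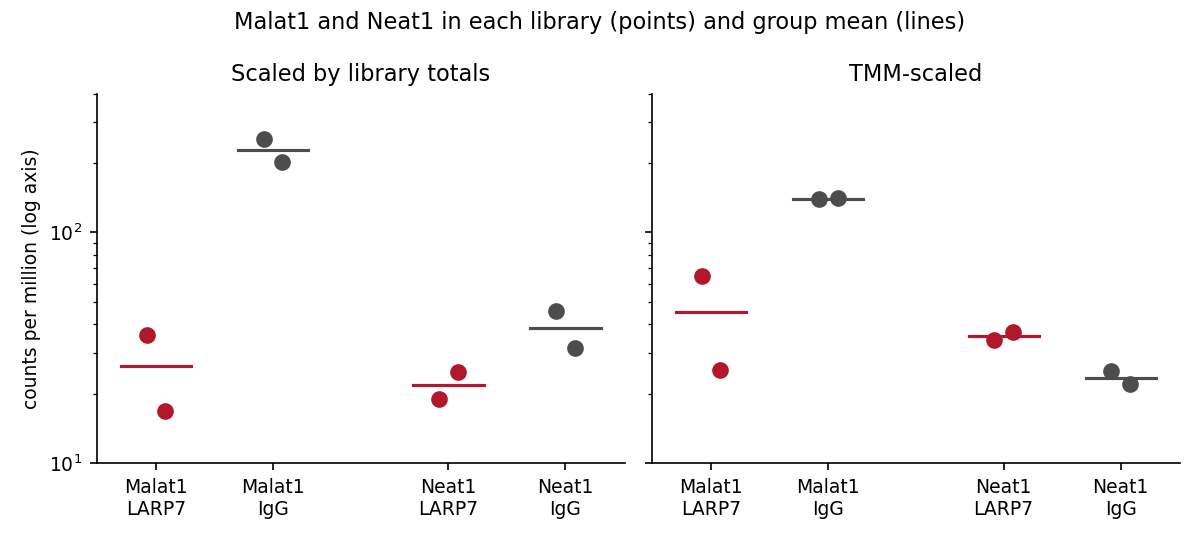
CPM of Malat1 and Neat1 in each library (points, log axis) with group means (lines), scaled by library totals (left) and by TMM (right). Malat1 is lower with the LARP7 antibody in both panels (45.1 against 140 CPM with TMM), while the Neat1 groups change places between panels.

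The ratio of the RNAs inside a library does not depend on how libraries are scaled. Malat1 counts were 5.57 and 6.41 times the Neat1 counts in the IgG libraries. They were 1.91 and 0.682 times the Neat1 counts in the LARP7 libraries, so that in LARP7 replicate 2 Neat1 had more counts than Malat1. In the LARP7 RIP the mean log2 ratio was 0.188 ± 1.05, in the IgG RIP 2.58 ± 0.144 (SD, n = 2 each), a difference of -2.39, or a ratio 5.24 times larger in the IgG RIP. The groups did not overlap, and the exact two-sided permutation p was 0.333, the smallest that 2 libraries against 2 can give. The difference lay between -3.13 and -1.65 with any 1 library left out. On this measure Malat1 was lower relative to Neat1 in all 4 pairings of a LARP7 with an IgG library, with a spread of over 1 log2 unit between the LARP7 libraries.

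Levels were also compared per length. Per kilobase of effective length Malat1 had 38.9 and 33.3 CPM in the IgG libraries, above the 8.79 and 5.73 CPM of Neat1. In the LARP7 libraries Malat1 had 6.06 and 3.37 CPM per kilobase and Neat1 3.06 and 7.43, so the genes overlapped there. Among lncRNA models of at least 300 nt (3339 to 3343 a library), ordered by count per length, Malat1 ranked 45 and 54 with IgG, and 91 and 187 with the LARP7 antibody. Neat1 ranked 121 and 179 with IgG and 150 and 100 with the LARP7 antibody. Its places overlapped between the groups, and those of Malat1 did not. In the authors' TPM, which divides by effective length and then scales each library to 1 total, Malat1 had 0.15 and 0.14 with the LARP7 antibody against 3.59 and 2.02 with IgG. Neat1 had TPM of 0.07 and 0.31 against 0.81 and 0.35, groups that also did not overlap.

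The length that RSEM gives a model is a mean over its isoforms, weighted by their estimated abundance. For Malat1 it was 6012 and 5085 nt with the LARP7 antibody and 6607 and 6112 nt with IgG. For Neat1, whose isoforms differ far more in length, it was 6250 and 3400 nt against 5259 and 5548 nt. The Neat1 groups overlapped, and the LARP7 libraries lay on either side of the IgG pair, so no shift between short and long Neat1 could be read at these counts. In LARP7 replicate 2 the low weighted length also raises the Neat1 level per kilobase given above.

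**Figure D2:**
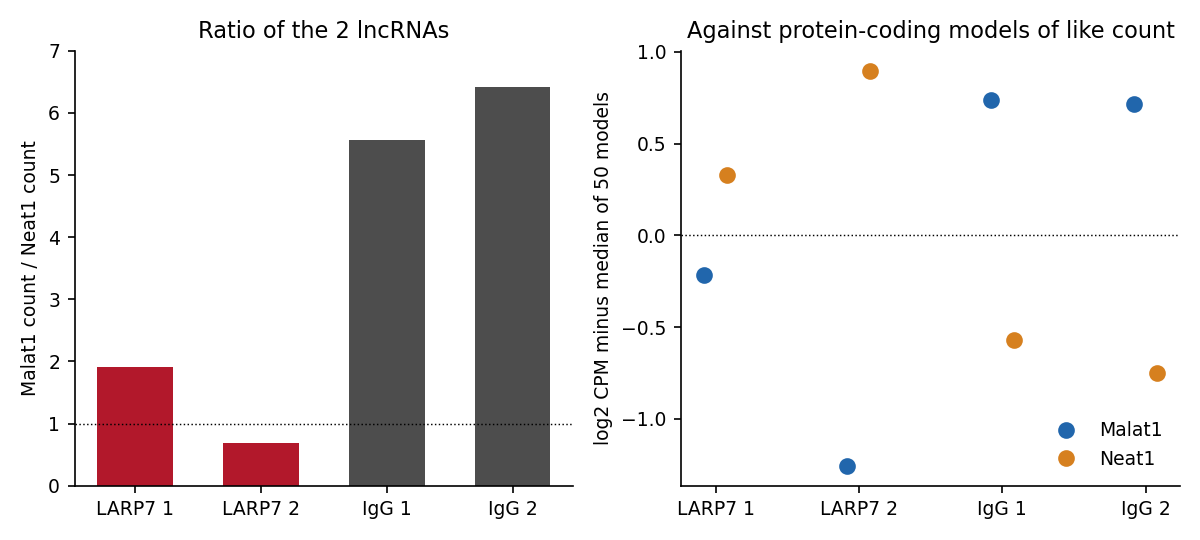
Left, Malat1 count over Neat1 count in each library; right, log2 CPM of each lncRNA minus the median of the 50 protein-coding models nearest to it in mean count. The ratio is 5.57 and 6.41 with IgG and at most 1.91 with the LARP7 antibody. On the right a change of side between the antibodies follows from matching on the mean over all libraries. Only its direction, opposite for the genes, and its size are read.

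Protein-coding models of like count give a second reference. For each lncRNA the 50 tested protein-coding models nearest in mean log2 CPM over the 4 libraries were taken. The models near Malat1 had mean counts of 426 to 971, and a median length of 3082 nt. In the IgG libraries Malat1 stood above their median, by 0.740 and 0.716 on the log2 scale, and in the LARP7 libraries below it, by -0.215 and -1.26. Counted singly, 38 and 48 of the 50 were lower than Malat1 with IgG, but 19 and 2 with the LARP7 antibody. The fold changes of these models were spread widely. Their median was -0.38 with TMM, with quartiles of -1.32 and 2.02, and 19 were called higher and 7 lower (11% and 10.5% of all protein-coding models tested were called in those directions). With library totals the balance was the opposite, 2 called higher and 27 lower, where 1.99% and 52.1% of all protein-coding models were. The gap of Malat1 to the median of the 50 was then -1.28. Malat1, at -1.63 with TMM, differed from the median of the 50 by -1.25, and 6 of them lay lower still. That median depended on how many models were taken: with the 100 nearest it was 0.57, and the gap -2.21. These models were chosen by the mean over both antibodies. A place above their median with IgG thus brings a place below it with LARP7, or the reverse, and the change of side is no separate evidence. Chosen by the IgG counts alone, the 50 models had a median of -1.21 (7 called higher, 12 lower), 12 lay lower than Malat1, and the gap shrank to -0.43. Beside mRNAs that were as abundant in the IgG RIP, Malat1 at -1.63 thus lay next to the lower quartile of -1.61.

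Neat1 stood on the other side. In the IgG libraries it lay below the median of its 50 like-count models, by -0.573 and -0.748 on the log2 scale, and in the LARP7 libraries above it, by 0.328 and 0.899. The change of side again follows from choosing these models by their mean over both antibodies. Their median log2 fold change was -0.82 with TMM, which put Neat1 1.41 above it, with 13 of the 50 higher still. Of the 50, 9 were called higher and 11 lower, where 11% and 10.5% of all protein-coding models tested were. Chosen by the IgG counts alone, the models had a median of -1.03 (1 called higher, 20 lower), and 7 of 50 were higher than Neat1. The gap was 1.62 and so kept its sign. With library totals 1 of the 50 like-count models was called higher and 36 lower (1.99% and 52.1% of all protein-coding models), and the gap was 1.43. Without LARP7 replicate 2 the gap was 0.98, without IgG replicate 1 it was 0.87, and without IgG replicate 2 it was 0.35, in each case with models chosen anew. For Malat1 it was -0.32 without LARP7 replicate 2, -2.73 without IgG replicate 1 and -3.26 without IgG replicate 2.

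Beside models of like length both gaps differed from those beside models of like count: that of Neat1 closed, and that of Malat1 widened. Both lncRNA models are longer than most of the like-count models. The 50 tested protein-coding models nearest to Neat1 in length (5073 to 5161 nt) had a median log2 fold change of 0.64. Of these 15 were called higher and 3 lower, where 11% and 10.5% of all protein-coding models tested were. Neat1 differed from that median by -0.05, with 24 of the 50 below it. The 50 models nearest to Malat1 in length (5893 to 6014 nt) had a median of 0.40, 11 called higher and 1 lower, and all 50 had a higher log2 fold change than Malat1. Thus Neat1 lay near the middle of its like-length models, a wide set with quartiles of -0.66 and 2.05. Malat1 differed from the median of its own by -2.03. The length used for Neat1 was a mean over libraries in which it ran from 3400 to 6250 nt. Like-length models had mean counts from 6.99 to 2381, so length and count were not matched at once.

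**Figure D3:**
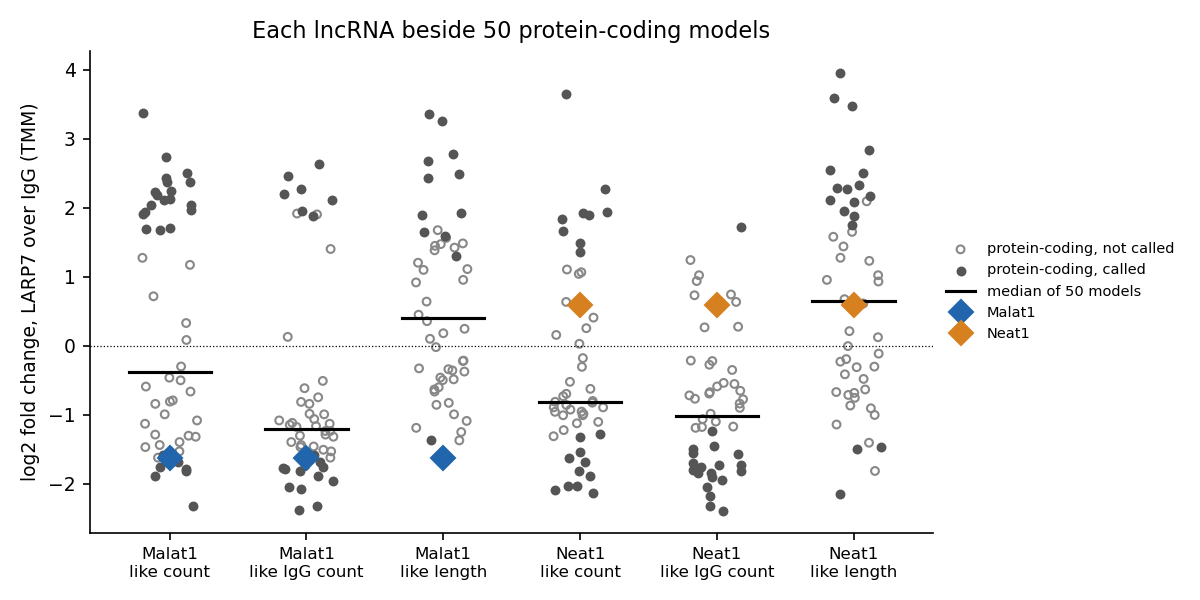
Log2 fold change (LARP7 over IgG, TMM) of 50 protein-coding models near each lncRNA in count over all libraries, in IgG count, or in length (circles, filled where called), their median (line) and the lncRNA itself (diamond). Malat1 lies at -1.63, under the whole set of like length, while Neat1 at 0.59 lies on the median of its set of like length.

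The gene models most like each lncRNA in profile over the 4 libraries were named by the distance between centred log2(CPM + 0.5) values. Library scaling cancels from these except for the added 0.5, which matters at counts as low as the 6 of Rnf151 in LARP7 replicate 2. Whether another scaling would change the ranks was not tested. Fold changes near that of the lncRNA thus follow from the choice, and the calls of these models are no separate evidence. Neat1 was not among the models near Malat1: it ranked 7231 of 12233 by nearness, at a distance of 2.59. By nearness to Neat1, Malat1 ranked 11389 of 12233. The nearest to Malat1 were Rnf151 (distance 0.0689), known as a RING finger gene of spermatids, 1110017D15Rik (0.126), Ccdc81 (0.128), Grik5 (0.130), a kainate receptor subunit, and Csnk2b (0.133), the regulatory subunit of casein kinase 2. Rnf151 had 18 and 6 counts with the LARP7 antibody against 138 and 70 with IgG. These 5 models were called lower by edgeR with TMM, as were 9.69% of all models tested. The 5 had log2 fold changes of -2.03 to -1.66 and edgeR adjusted p of 0.0262 to 0.0448. DESeq2 called 3 of them and not Rnf151 (adjusted p = 0.0855) or Grik5 (adjusted p = 0.0822). None of these 5 calls was kept without LARP7 replicate 2. The nearest to Neat1 were Ncbp2 (distance 0.0172), a subunit of the nuclear cap-binding complex, Eif4b (0.0554), a translation initiation factor, Ammecr1 (0.0562), Foxm1 (0.0667), a cell cycle transcription factor, and Srsf2 (0.0684), an SR splicing factor of nuclear speckles. Eif4b had 113 and 133 counts with the LARP7 antibody against 269 and 114 with IgG. The models nearest to Neat1 had log2 fold changes of 0.46 to 0.65, and 0 of the 5 passed the test in edgeR (adjusted p from 0.219 to 0.567, unadjusted from 0.111 to 0.429) or in DESeq2 (adjusted p from 0.456 to 0.791).

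Other nuclear lncRNAs were mostly too scarce to test. Of 19 listed, 5 passed the filter on low counts, with a median log2 fold change of 0.66. Of these 1 was called higher and 0 lower, where 21.4% of all lncRNA models tested were called higher and 5.56% lower. With library totals 0 rose and 1 fell (Nespas, -2.40, edgeR adjusted p = 0.0240), where 47.1% of all models fell. Snhg14, the long host transcript of imprinted snoRNAs, had 281 and 369 counts with the LARP7 antibody against 252 and 224 with IgG, and rose by 1.52 (SE 0.49, edgeR adjusted p = 0.0438), but not with library totals (0.16). Its call was lost when any library but IgG replicate 2 was left out. Kcnq1ot1, which silences an imprinted domain in cis, had 88.4 and 86.4 counts against 137 and 104, and its log2 fold change was 0.66 (edgeR adjusted p = 0.246), close to that of Neat1. Rian had 1.32 (edgeR adjusted p = 0.0768). Peg13 and Nespas had values of -0.35 and -0.92, and neither passed. Tsix, Hotair, Hottip and Dnm3os had 0 counts in all libraries. No listed lncRNA that was tested had a fold change as low as Malat1, whose count was also the highest of them with IgG.

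The mRNAs of paraspeckle proteins, the partners of Neat1, were set beside it. Of 18 listed, 17 were tested, 2 were called higher and 2 lower, with a median log2 fold change of -0.36. Among all protein-coding models 11% were called higher and 10.5% lower, so these counts lay near the background. DESeq2 called 2 (9.41% of protein-coding models higher, 6.73% lower). The core proteins NONO, SFPQ and PSPC1 are encoded by mRNAs with values of -0.32, -0.24 and -0.36, none past the threshold. Rbm14, a paraspeckle protein gene, had 347 and 481 counts with the LARP7 antibody against 240 and 112 with IgG and rose by 2.46 (SE 0.48, edgeR adjusted p = 0.00917), a call kept with any 1 library left out but not with library totals (1.05, adjusted p = 0.0793). Nudt21, a subunit of cleavage factor I, rose by 1.97 (adjusted p = 0.0148; lost without IgG replicate 1, and 0.58 with library totals). Dazap1 and Taf15, genes of RNA-binding proteins, fell by 1.48 and 1.56 (edgeR adjusted p = 0.0295 and 0.0451), calls that DESeq2 did not make (adjusted p = 0.0739 and 0.0995), the call of Dazap1 lost whichever library was left out and that of Taf15 in 3 of the 4 cases. On the scale of library totals 14 of the 17 fell and 0 rose, where 52.1% of all protein-coding models fell and 1.99% rose. The protein-coding models as a whole had a median of -0.25 with TMM.

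The nuclear speckle proteins, which share a compartment with Malat1, gave a like count: 18 tested, 1 called higher, 1 lower, median -0.31. Of all protein-coding models tested 11% were called higher and 10.5% lower. Acin1 had 58 and 48 counts with the LARP7 antibody against 439 and 240 with IgG and fell by 1.47 (SE 0.40, edgeR adjusted p = 0.0249). Ddx39b, an RNA helicase gene of mRNA export, rose by 1.43 (edgeR adjusted p = 0.0249; 0.01 with library totals), a call that DESeq2 did not make (adjusted p = 0.0541). Both calls were lost in 3 of the 4 cases with a library left out. The speckle scaffold genes Son and Srrm2 had -0.39 and -0.32. On the scale of library totals 14 of the speckle genes fell and 0 rose, where 52.1% of all protein-coding models fell and 1.99% rose.

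A further list held genes for making or binding the 3' ends of these lncRNAs. Of the 14, 8 were tested, 1 was called higher (Mettl16, a binder) and 0 lower, with a median of -0.31. Of all models tested 14.5% were called higher and 9.69% lower. With library totals 0 rose and 5 fell, with a median of -1.72, where 47.1% of all models fell. Mettl16, which encodes an RNA methyltransferase of U6 that also binds the Malat1 triple helix, had 195 and 258 counts with the LARP7 antibody against 111 and 104 with IgG. It rose by 2.14 (SE 0.47, edgeR adjusted p = 0.0130), and the call was lost without IgG replicate 1 and with library totals (0.78). Rpph1, the RNA of RNase P and itself a short non-coding RNA, had 85 and 128 counts against 370 and 159, and a log2 fold change of -0.07 (SE 0.39, edgeR adjusted p = 0.907), and fell by 1.48 with library totals (adjusted p = 0.0105). Elac2, the nuclease that trims tRNA 3' ends, had -1.69 (edgeR adjusted p = 0.0779), and fell by 3.07 with library totals (adjusted p = 0.000545).

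The genes around Malat1 and Neat1 on chromosome 19 did not share 1 direction. Of 15 listed, 8 were tested, 1 was called higher and 1 lower, with a median of 0.65. Of all protein-coding models tested 11% were called higher and 10.5% lower. With library totals 0 rose and 3 fell, with a median of -0.79, where 52.1% of all protein-coding models fell. Frmd8, next to Neat1, had 365 and 432 counts with the LARP7 antibody against 407 and 205 with IgG, and rose by 1.59 (SE 0.47, edgeR adjusted p = 0.0323), though with library totals its value was 0.18. Ehbp1l1 fell by 1.35 (edgeR adjusted p = 0.0482), a call that DESeq2 did not make (adjusted p = 0.0932). The calls of Frmd8 and Ehbp1l1 were kept with LARP7 replicate 1 left out and lost with each other library left out. Slc25a45, Pola2, Rela, Dpf2, Map3k11 and Fam89b had values of -2.11, -0.36, 0.43, 0.87, 1.05 and 1.37, none past the threshold with TMM. Tigd3, Frmd8os, Cdc42ep2, Ltbp3, Sipa1 and Kcnk7 did not pass the filter.

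Whole testis holds germ cells and somatic cells, and markers of both were present. The groups share tissue, strain and age and differ in antibody, so marker values compare RNA recovered in precipitates, not cell numbers. How many cells of each type a lysate held was not measured. The labelled tissue was borne out by protamine and transition protein mRNAs: the 5 elongating spermatid markers together had 216 and 168 CPM of all counts with the LARP7 antibody and 1752 and 1551 CPM with IgG. These markers had log2 fold changes of -2.41 to -1.49 with TMM, a range that holds the value of Malat1. Their median log2 fold change with TMM was -1.76, beside -1.63 for Malat1, and 3 of 5 were called lower, where 10.5% of all protein-coding models were (5 by DESeq2, where 6.73% were). Prm1, which packs sperm DNA, fell by 2.41 (SE 0.45, edgeR adjusted p = 0.00791), Tnp2 by 2.21 and Odf1 by 1.76. The call of Odf1 was lost whichever library was left out, and that of Tnp2 without LARP7 replicate 2. Of the 4 round spermatid markers 2 were called lower, with a median of -1.43, a summed level of 14.9 and 12.9 CPM against 118 and 105 CPM, and calls for Tssk1 (log2 fold change -2.20) and Spaca1 (edgeR adjusted p = 0.0170, lost without LARP7 replicate 2). Spermatocyte markers had a median of -0.15, with 0 of 4 called by edgeR or DESeq2 and 1 (Spo11) at an unadjusted p under 0.05. Those with the most counts, Piwil1 and Sycp1, had log2 fold changes of 0.02 and -0.31 with TMM. Leydig cell markers had a median of -0.09, with 0 of 4 called by either tool or at an unadjusted p under 0.05. Cyp17a1 and Insl3, which had the most counts of these, had values of -0.30 and -0.14. Among 3 tested spermatogonial markers Zbtb16 rose by 2.49 (lost without LARP7 replicate 2, and 1.08 with library totals), and among 3 Sertoli cell markers Wt1 fell by 2.05, a call lost in 3 of the 4 cases with a library left out and not made by DESeq2 (adjusted p = 0.122). With library totals 0 members of these lists were called higher. Called lower were 5 of 5 elongating spermatid markers, 4 of 4 round spermatid, 3 of 4 spermatocyte (median -1.61), 3 of 4 Leydig cell (median -1.44), 3 of 3 Sertoli cell and 0 of 3 spermatogonial markers, on a scale where 52.1% of protein-coding models fell. Pecam1, Ptprc and Hba-a1, markers of vessels and blood, had at most 13 counts in a library and were not tested. Myh11 and Acta2, the 2 tested members of the same list (peritubular cells, vessels and blood), had values of 0.93 and -0.65 with TMM, neither called. With library totals 1 of these 2, Acta2, was called lower (-2.09, edgeR adjusted p = 0.00664). The part of germ cell make-up in the Malat1 or Neat1 values was not tested.

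**Figure D4:**
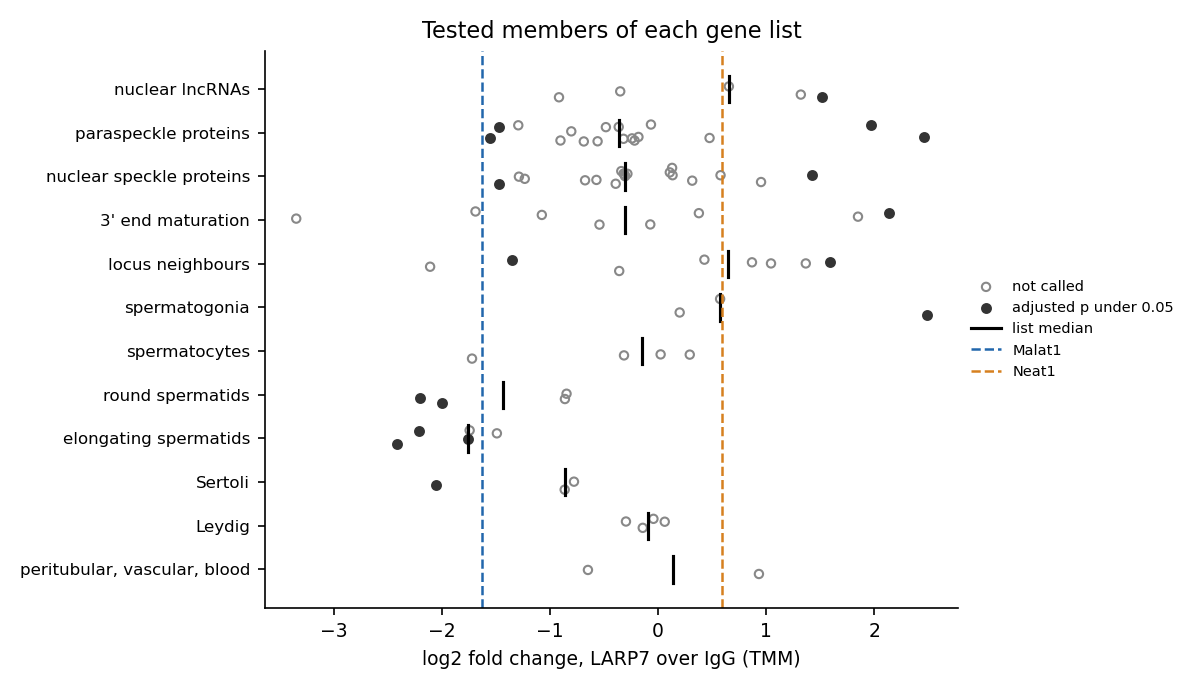
Log2 fold change (LARP7 over IgG, TMM) of the tested members of each gene list (circles, filled where called) with the list median (bars), and of Malat1 and Neat1 (dashed lines). Malat1 at -1.63 lies among the elongating spermatid markers (median -1.76), and single members of other lists lie as near (Elac2 -1.69, Taf15 -1.56). Neat1 at 0.59 lies near the median of 0.66 of only 5 tested nuclear lncRNAs, which ran from -0.92 to 1.52.

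**Figure D5:**
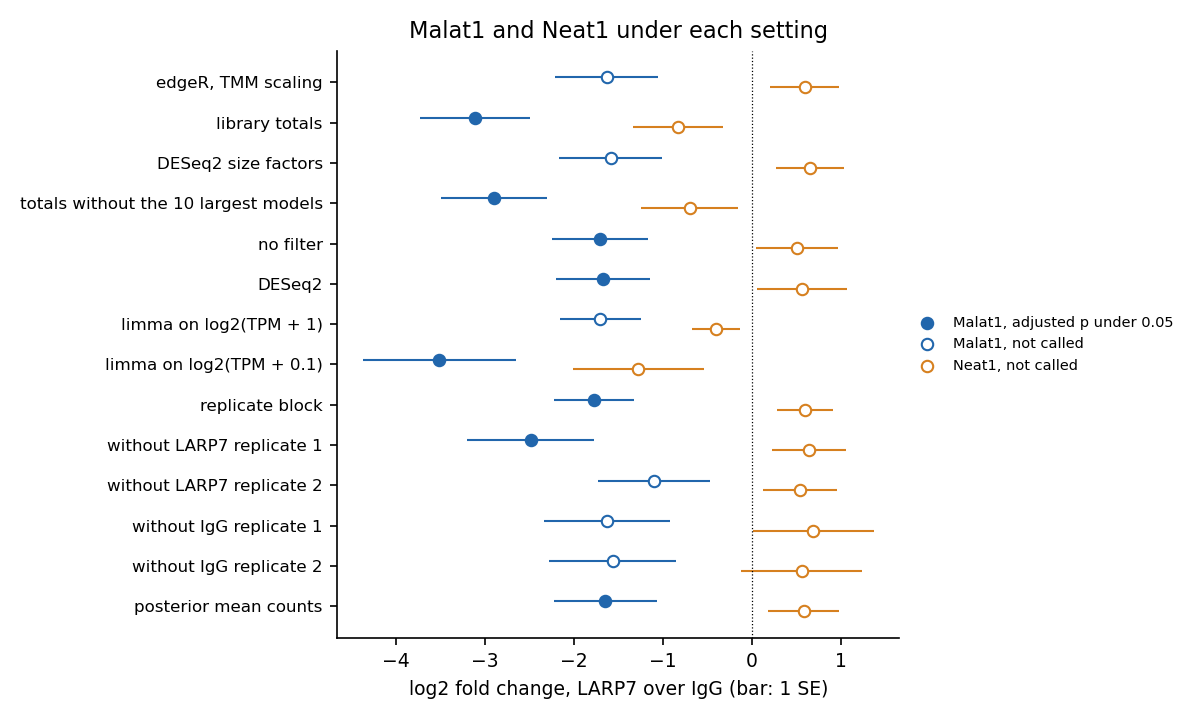
Log2 fold change of Malat1 and Neat1 under each setting, with 1 SE as the bar and filled symbols where the adjusted p was under 0.05. Malat1 is below 0 in all settings drawn, from -3.51 to -1.10, and Neat1 crosses 0 with library totals, with totals that leave out the 10 largest models and with TPM.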

How the data were processed

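RNA was measured in 2 LARP7 and 2 IgG immunoprecipitates. The submitters' processing notes name mm10 as the build and cutadapt, Bowtie2 and RSEM as tools, without versions or settings. The deposited tables give expected counts and TPM of the authors, with posterior SDs and model lengths. Expected counts were rounded; 13.4% to 18.9% of values were not whole. Biotypes and positions came from RefSeq (GRCm38.p6), matched by symbol for 70.6% of models.

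edgeR 4.0.16 (R 4.3.3) fitted antibody alone over all libraries: filterByExpr, TMM, robust quasi-likelihood F tests, Benjamini-Hochberg over 12234 models, threshold 0.05. TMM factors were 0.558 and 0.673 (LARP7) and 1.85 and 1.44 (IgG). SE is the unshrunk log2 fold change over the square root of F. "Library totals" are sums over tested models; printed CPM of all counts use every model. Profiles and like-count sets used log2(CPM + 0.5). Named from each list were members past the threshold, up to 4 with the most counts, or, with none, the 2 with the most counts; locus genes were all named except 1 that is not reported here, and other list members were named after their values were seen. The script was tested on simulated counts. Alternatives used DESeq2 1.42.0 and limma 3.58.1 on log2(TPM + 1) or log2(TPM + 0.1). The genes and lists were chosen with earlier results of these data known.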

Additional observations from a re-analysis of the deposited data

How the results depend on the processing

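Malat1 lay below 0 in all 13 alternatives. It was called lower with library totals (-3.11), totals without the 10 largest models (-2.90), no filter (-1.71), DESeq2 (-1.67), limma on log2(TPM + 0.1) (-3.51) and posterior mean counts (-1.65), the last chosen after seeing the data; with a library left out it ranged from -2.48 to -1.10. Adjusted p over these alternatives ran from 6.25e-06 to 0.344. Neat1 was called in 0 of 13 and reversed with library totals (-0.83), totals without the 10 largest models (-0.70), limma on log2(TPM + 1) (-0.40) and limma on log2(TPM + 0.1) (-1.28). The replicates share numbers; deviations of same-numbered libraries correlated at 0.2 over 12234 models, and the labels do not say that numbers pair libraries. With the replicate number as a block Malat1 was -1.78 (adjusted p = 0.0189), Neat1 0.60, and 2088 models were higher and 1405 lower.

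Over all models 1772 were higher and 1185 lower. With library totals 483 and 5759 were called (7.74% of calls higher, against 59.9% with TMM), with totals without the 10 largest models 548 and 5091, with limma on log2(TPM + 1) 0 and 0 (5478 at an unadjusted p under 0.05), and with limma on log2(TPM + 0.1) 216 and 4330. DESeq2 called 653 lower. With a library left out, 660 to 2138 were higher and 197 to 922 lower, both lowest without LARP7 replicate 2.

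The Malat1 gap to like-count models was -2.21 with 100 models, -0.43 with models near in IgG count and -2.03 with models near in length, and -3.26 to -0.32 with a library left out. The Neat1 gap reversed with models near in length (-0.048) and was 0.35 to 1.45 with a library left out. The Malat1 to Neat1 ratio difference was -2.36 with TPM. Of 22 named calls, 19 were lost with some library left out, 17 of them without LARP7 replicate 2. DESeq2 did not make 7 of the 22 (Dazap1, Taf15, Ddx39b, Ehbp1l1, Wt1, Rnf151 and Grik5), and library totals lost 7, all of them higher with TMM. Malat1 in LARP7 replicate 2 rested on 110 counts and Neat1 on 131 to 320 a library, and 2 libraries a group limit all of these values.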
